A study of Homo sapiens with 6 samples.

Results

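S100 proteins are small calcium sensors of the EF-hand type, and annexins are calcium-dependent membrane-binding proteins with which several of them form complexes. The 8 genes described here are 6 S100 genes (S100A4, S100A6, S100A10, S100A11, S100A13 and S100A16) and 2 annexin genes (ANXA1 and ANXA2). They were selected by gene symbol from a table of 16760 genes, with values of the comparison reported below already in view, so their own differences between genotypes are given as a description without a test.

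RNA labelled as H1975, an established human lung adenocarcinoma line, was sequenced from YTHDC2 knockout cells (3 libraries) and from WT cells (3 libraries). YTHDC2 is an RNA helicase that reads m6A, a methyl mark on mRNA, and the study used CRISPR to remove it and RNA-seq to look for genes downstream of it. The labels name no treatment or time point, and whether the knockout cells were 1 clone is not given in the sources used here. Nothing in the labels says that libraries of a genotype came from separate cultures, so p-values measure the spread between these libraries, which may be technical. The legend that covers the RNA-seq panels and a qPCR panel speaks of 3 biological replicates, without naming the panels meant.

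An S100 protein usually works as a dimer that opens a binding face when calcium is bound, and then docks to the tail or helix of a target protein. S100A10 is the exception in the family, since its calcium loops are inactive and it stays in the open form. Its dimer joins 2 molecules of annexin A2 into a tetramer at the plasma membrane, where the complex gathers plasminogen and its activator, and S100A11 pairs with annexin A1 in a comparable way. Most S100 genes of humans lie together on the long arm of chromosome 1.

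The knockout, the libraries and the label were checked first. YTHDC2 measured 7.82, 8.92 and 8.14 FPKM (fragment counts divided by gene length and sequencing depth) in the knockout libraries. In the WT libraries it measured 13.0, 17.1 and 201 FPKM. The transcript was therefore lower in each knockout library but still present, and WT replicate 3 stood apart from the other libraries, so log2 fold changes of the members are given without it as well. For YTHDC2 the log2 fold change was -2.09 (standard error 1.17), with an adjusted p of 0.228 by limma, above 0.05. Lower values without overlap were seen for 33.1% of all genes tested. From 27363312 to 34027079 fragments per library were recovered from the steps in the FPKM values. Of 15 lung epithelial markers in the table, 9 averaged below 1 FPKM, among them EPCAM at 0.194 to 0.912 FPKM and KRT7 at 0 to 0.259 FPKM, while the summed level of the list was 177 to 185 FPKM in the knockout and 148 to 161 FPKM in the WT libraries, most of it from KRT8 and KRT18. Of that list EPCAM and KRT19 were called lower in the knockout (adjusted p below 0.05 by limma together with more than 1 unit of log2 change), as were 1.99% of all genes. By adjusted p alone 5 of 13 tested markers were lower and 2 higher, beside 26.2% and 16.6% of all genes. The higher ones were KRT8 at 0.24 and KRT18 at 0.27 (adjusted p of 0.00711 and 0.00175 by limma). The 6 fibroblast markers summed to 21.6 to 22.9 FPKM and 21.9 to 23.1 FPKM, the 5 leukocyte markers to 1.58 to 1.79 FPKM and 2.36 to 2.86 FPKM, and the 4 endothelial markers to 0.0758 to 0.111 FPKM and 0.06 to 0.124 FPKM, in the knockout and WT libraries, respectively. Within these lists COL1A2, a fibroblast collagen, was called lower (0.2 ± 0.0511 and 1.31 ± 0.442 FPKM, SD, n = 3 each, adjusted p = 0.000272 by limma), and CD68, a macrophage marker, was lower by adjusted p alone (1.44 ± 0.238 and 2.01 ± 0.268 FPKM, adjusted p = 0.0394 by limma). No other fibroblast marker had an adjusted p below 0.05, among them COL3A1, the most abundant (15.4 ± 0.813 and 14.3 ± 0.119 FPKM, adjusted p = 0.222 by limma). The part of these markers in the results below was not tested. PTPRC, the defining leukocyte marker, was at 0 in each WT library, and CDH5, an endothelial cadherin, was at 0 in each knockout library. In bulk RNA, fewer cells of a type and less RNA per cell cannot be told apart.

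Promoter windows of 4 of the genes are shown because the results turn on them. S100A6 and S100A4 lie 7369 bases apart and the first differed far more between genotypes, and S100A10 and ANXA2 encode the subunits of one complex. The sequences are from RefSeq on GRCh38.p14 and run from 250 bases before to 50 bases after the annotated start. All 8 genes were found there, with 11 starts between them. Capitals mark the TATAA and GGGCGG letters on either strand, including overlapping matches.
S100A6 (chr1:153535942-153536241, minus strand): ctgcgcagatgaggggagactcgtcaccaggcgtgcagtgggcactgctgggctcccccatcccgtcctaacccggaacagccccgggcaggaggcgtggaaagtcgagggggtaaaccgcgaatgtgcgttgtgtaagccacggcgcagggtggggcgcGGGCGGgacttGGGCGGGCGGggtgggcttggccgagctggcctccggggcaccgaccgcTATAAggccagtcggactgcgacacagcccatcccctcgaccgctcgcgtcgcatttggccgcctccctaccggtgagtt
S100A4 (chr1:153545757-153546056, minus strand): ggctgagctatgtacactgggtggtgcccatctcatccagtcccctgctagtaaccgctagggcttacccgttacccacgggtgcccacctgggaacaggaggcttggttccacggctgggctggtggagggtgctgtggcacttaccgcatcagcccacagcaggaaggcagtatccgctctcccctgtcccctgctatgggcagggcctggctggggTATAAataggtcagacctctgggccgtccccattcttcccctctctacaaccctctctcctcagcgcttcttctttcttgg
S100A10 (chr1:151993810-151994109, minus strand): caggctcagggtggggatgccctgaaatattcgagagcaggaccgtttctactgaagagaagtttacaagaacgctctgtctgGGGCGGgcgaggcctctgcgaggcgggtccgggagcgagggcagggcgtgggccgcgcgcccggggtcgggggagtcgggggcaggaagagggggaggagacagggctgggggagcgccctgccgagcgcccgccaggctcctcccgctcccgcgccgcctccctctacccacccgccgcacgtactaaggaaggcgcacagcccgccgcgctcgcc
ANXA2 (chr15:60397937-60398236, minus strand): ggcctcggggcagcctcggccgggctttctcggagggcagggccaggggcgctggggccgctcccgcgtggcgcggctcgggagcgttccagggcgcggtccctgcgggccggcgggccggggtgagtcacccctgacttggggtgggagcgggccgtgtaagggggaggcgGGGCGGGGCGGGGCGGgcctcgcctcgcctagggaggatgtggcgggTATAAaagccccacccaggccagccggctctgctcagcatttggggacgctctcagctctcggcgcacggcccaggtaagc

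The letters TATAA begin at position -30 from the annotated start in S100A6 and at position -31 in S100A4 and in ANXA2, and they do not occur in the S100A10 window. TATAA occurred in 5 of the 11 windows of the 8 genes and in 20.4% of the 35116 windows in the RefSeq table. GGGCGG, the core of the GC box, occurred in 6 of the 11 windows and in 45.0% of all windows. It was found 3 times in S100A6 and 3 times in ANXA2, once in S100A10 and not at all in S100A4. The S100A4 window also differed in base composition, with 8 CpG sites against 31 in S100A6, 32 in S100A10 and 32 in ANXA2, where the median over all windows was 14. Such matches describe the letters of these windows and say nothing of which factors bind there.

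S100A6, also called calcyclin, is a calcium sensor linked to proliferating cells. It was detected at 0.404, 0.0691 and 0.213 FPKM in the knockout libraries. In the WT libraries it was at 3.25, 6.23 and 3.77 FPKM. Each knockout library was far below each WT library, and the highest value was in WT replicate 2, not in the library that stood apart. Means were 0.229 ± 0.168 FPKM (SD, n = 3) in the knockout and 4.42 ± 1.59 FPKM (SD, n = 3) in WT. The log2 fold change of knockout over WT, on the scale of log2(FPKM + 0.1), was -3.86 with a standard error of 0.38, and it was -3.95 without WT replicate 3. A pseudocount of 1 in place of 0.1 gave -2.11, since the knockout values lie near the pseudocount.

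The counts behind S100A6 were small. The knockout values rest on 6, 1 and 3 fragments, and the WT values on 43, 83 and 45 fragments. Scaled for depth, the 10 knockout fragments against 171 WT fragments gave a ratio of 0.0518, with an exact (Clopper-Pearson) 95% interval of 0.0244 to 0.0977. That interval covers counting error alone and not the spread between libraries. S100A6 lies at chr1:153534599-153536244 (GRCh38, minus strand), and an exon of BX470102.1 on the plus strand overlaps it, so fragments of the 2 genes cannot be told apart without a known strand setting. Its FPKM were computed with a length of 434 bases, whereas its GENCODE transcripts span 665 to 673 bases. This scales its level but not its fold change.

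S100A4, or metastasin, binds non-muscle myosin and is known from motile and metastatic cells. Its values were 6.97, 7.21 and 8.16 FPKM in the knockout libraries. The WT values were 10.2, 7.83 and 7.05 FPKM. The genotypes overlapped, and the spread within WT was wider than the distance between the means. Those means were 7.45 ± 0.629 FPKM and 8.37 ± 1.65 FPKM (SD, n = 3 each), with a log2 fold change of -0.15 (standard error 0.13), or -0.26 without WT replicate 3. S100A4 lies at chr1:153543613-153550136, 7369 bases from the S100A6 gene and on the same strand. The ratio of S100A6 to S100A4 within a library was 0.058, 0.00959 and 0.0261 in the knockout and 0.318, 0.796 and 0.535 in WT.

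S100A10, the annexin A2 partner, was the S100 gene with the highest level. It was at 223, 214 and 218 FPKM in the knockout libraries. The WT libraries had 159, 136 and 144 FPKM. All 3 knockout libraries were above all 3 WT libraries, and the knockout libraries differed little from each other. Means were 219 ± 4.66 FPKM and 146 ± 11.4 FPKM (SD, n = 3 each), a ratio of 1.49. The log2 fold change was 0.58 (standard error 0.06), below the threshold of 1, and it was 0.57 without WT replicate 3. The values rest on 14677 knockout and 8714 WT fragments. S100A10 lies at chr1:151982915-151994390, and its mean was above that of 98.2% of genes in the table.

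ANXA2 binds membrane phospholipids and F-actin. It measured 25.5, 23.9 and 25.0 FPKM in the knockout libraries. It measured 24.3, 26.0 and 23.6 FPKM in the WT libraries. The values of the genotypes were interleaved, with means of 24.8 ± 0.846 FPKM and 24.6 ± 1.21 FPKM (SD, n = 3 each) and a log2 fold change of 0.01 (standard error 0.06), or -0.02 without WT replicate 3. The gene lies at chr15:60347134-60402883, and GENCODE lists 3 pseudogenes of it, so fragments of near-identical copies may be assigned either way. The S100A10 to ANXA2 ratio was 8.75, 8.97 and 8.72 in the knockout and 6.55, 5.25 and 6.1 in WT. Its means were 8.81 ± 0.133 and 5.97 ± 0.661 (SD, n = 3 each), a factor of 1.48 between genotypes and of 1.49 without WT replicate 3. The absolute ratio depends on the lengths used, 671 bases for S100A10 and 5227 bases for ANXA2, whose longest GENCODE transcript has 1676 bases, but the factor between genotypes does not.

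**Figure D1:**
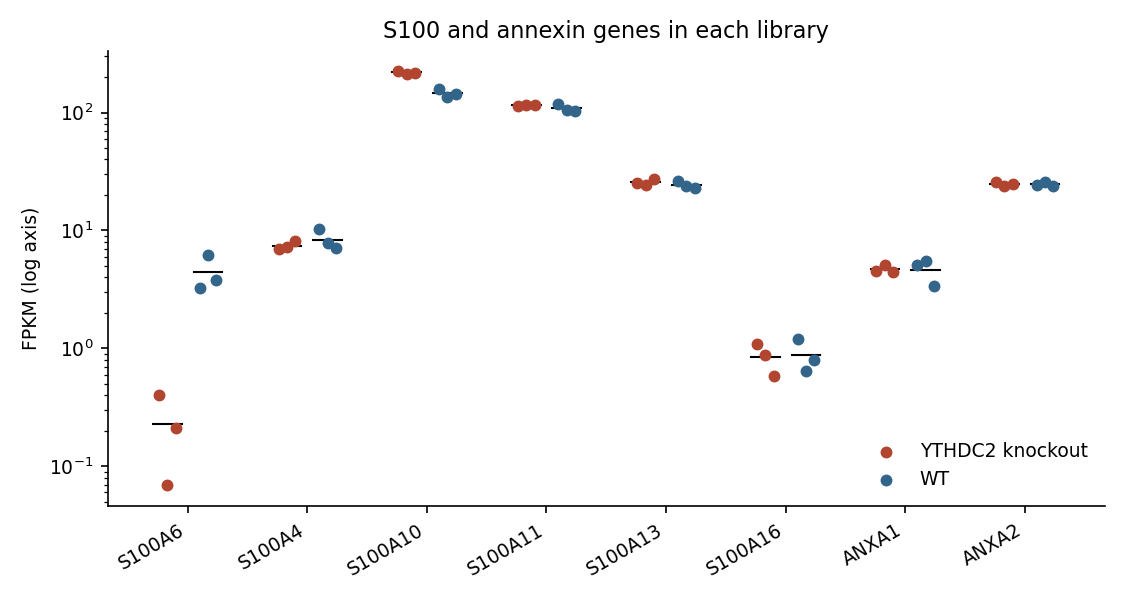
FPKM of the 8 genes on a log axis, with 1 point per library (red, YTHDC2 knockout; blue, WT) and a black line at each mean of 3 libraries. S100A6 was at 0.0691 to 0.404 FPKM in the knockout and 3.25 to 6.23 FPKM in WT, S100A10 was higher in each knockout library, and the other 6 genes overlapped.

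S100A11, which binds annexin A1, was at 114, 116 and 115 FPKM in the knockout libraries. The WT libraries were at 118, 106 and 103 FPKM. WT replicate 1 was above all knockout libraries, so the genotypes overlapped. The means were 115 ± 1.0 FPKM and 109 ± 8.18 FPKM (SD, n = 3 each), and the log2 fold change was 0.08 (standard error 0.06), or 0.04 without WT replicate 3. S100A11 lies at chr1:152032506-152047907, and GENCODE lists 2 pseudogenes of it.

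ANXA1, the partner of S100A11 and a mediator of the anti-inflammatory action of glucocorticoids, was at 4.54, 5.13 and 4.46 FPKM in the knockout libraries. It was at 5.07, 5.53 and 3.39 FPKM in the WT libraries. WT held both the highest and the lowest value. The means were 4.71 ± 0.364 FPKM and 4.66 ± 1.13 FPKM (SD, n = 3 each), with a log2 fold change of 0.04 (standard error 0.17). Its sign was not stable, since the value was -0.17 without WT replicate 3, the lowest library, and 0.4 after a correction for GC content. The ratio of S100A11 to ANXA1 averaged 24.6 ± 1.7 in the knockout and 24.3 ± 5.6 in WT (SD, n = 3 each), and without WT replicate 3 the knockout mean was 1.16 times the WT mean. ANXA1 lies at chr9:73151757-73170393 on the plus strand.

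S100A13, which takes part in the release of signal proteins that lack a secretion sequence, was at 25.4, 24.3 and 27.1 FPKM in the knockout libraries. It was at 26.5, 23.9 and 22.7 FPKM in the WT libraries. The genotypes overlapped, with means of 25.6 ± 1.38 FPKM and 24.4 ± 1.94 FPKM (SD, n = 3 each) and a log2 fold change of 0.07 (standard error 0.07), or 0.02 without WT replicate 3. S100A13 lies at chr1:153618787-153631360, where its exons overlap those of AL162258.1 and of S100A1 on the other strand. In the overlapping stretches, fragments of S100A13 and S100A1 cannot be told apart without a known strand setting. AL162258.1 is on the same strand as S100A13, so strand would not separate those 2 genes.

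S100A16, a widely expressed S100 protein, was the least abundant of the 8 genes in WT. It was at 1.09, 0.883 and 0.584 FPKM in the knockout libraries. It was at 1.19, 0.639 and 0.802 FPKM in the WT libraries. The ranges overlapped almost entirely, and the means were 0.853 ± 0.255 FPKM and 0.876 ± 0.281 FPKM (SD, n = 3 each), with a log2 fold change of -0.03 (standard error 0.26) that ran from -0.21 to 0.19 over leaving out 1 library at a time and was -0.07 without WT replicate 3. S100A16 lies at chr1:153606886-153613145.

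In WT the levels per length ran from S100A10 and S100A11 through S100A13 and ANXA2 to S100A4, ANXA1, S100A6 and S100A16. The ranges of S100A13 and ANXA2 overlapped, as did those of ANXA1 and S100A6, so those neighbours were not separated by more than their spread. In the knockout S100A6 came last, below the lowest library of S100A16. The order rests on the lengths used for the FPKM, which for S100A13 was 1892 bases against a longest GENCODE transcript of 686 bases. The 6 S100 genes together summed to 368 ± 4.69 FPKM in the knockout and 293 ± 21.4 FPKM in WT (SD, n = 3 each). S100A10 made up 59.4% ± 0.638 of that sum in the knockout and 49.9% ± 1.41 in WT (SD, n = 3 each). Its ratio to S100A11, the next most abundant, was 1.9 ± 0.0569 and 1.34 ± 0.061 (SD, n = 3 each), respectively. S100A6 was a small part of the sum in both genotypes.

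**Figure D2:**
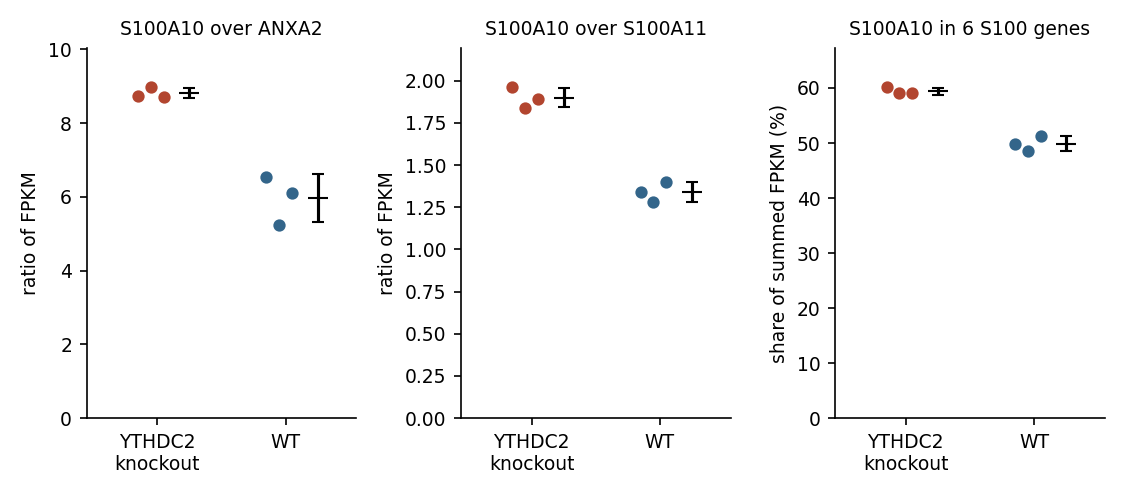
Ratio of S100A10 to ANXA2 (left), ratio of S100A10 to S100A11 (middle) and share of S100A10 in the summed FPKM of 6 S100 genes in percent (right), with 1 point per library (red, YTHDC2 knockout; blue, WT) and the mean ± SD of 3 libraries beside them. The knockout libraries were above the WT libraries in each panel, with mean S100A10 to ANXA2 ratios of 8.81 and 5.97.

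Counted over the 8 genes, 1 (S100A6) was past both thresholds for a call in the lower direction, where 1.99% of 15441 tested genes were. None was past both in the higher direction, where 0.732% of all genes were. The values of the genotypes did not overlap for S100A6, which was lower, and for S100A10, which was higher, against 33.1% of all genes lower and 20.7% higher without overlap. The genes were chosen on this comparison, so nothing is read from these counts. The median log2 fold change of the 8 genes was 0.03, beside -0.09 for all genes tested. Over all genes 307 were called lower and 113 higher, a share of 73.1% lower, which became 206 lower and 209 higher (49.6%) with median scaling and 206 lower and 195 higher (51.4%) with quantile normalization. The median over all genes was 0.04 with median scaling, under which S100A6 was at -3.73 and S100A10 at 0.71.

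Fold changes followed GC content across the table, so the GC content of the 2 genes that stood out is given beside them. S100A6 transcripts had 59.8% GC and fell in the 9th of 10 equal groups of genes ordered by GC content, whose median log2 fold change was 0.14. S100A10 transcripts had 49.4% GC and fell in the 5th group, whose median was -0.11, and the 2nd group, which holds ANXA1, had a median of -0.31. For both S100 genes the median of their group had the other sign, which is no test of the part of GC content. A correction for GC content gave -3.98 for S100A6 and 0.71 for S100A10.

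The 3 genes whose profile over the 6 libraries was most like that of each member were found from the root mean square distance of centred log2 values. For S100A6 they were DDX58 at 0.691, IFI44L at 0.741 and IFIH1 at 0.788 log2 units. For S100A10 they were ERCC2 at 0.0165, MACROD1 at 0.0193 and PPP4C at 0.0252 log2 units. S100A6 thus had no gene as close to it as the other members had, but its knockout values rest on 6, 1 and 3 fragments. Its SD of log2 values in the knockout was 0.79, against 0.01 to 0.12 for the other ranked members. The part of counting error in its distances was not tested. For S100A11 the closest was TRIM11 at 0.0153, for S100A13 MRPS2 at 0.0158, for ANXA2 NDUFS5 at 0.0178, for S100A4 HYI at 0.0386 and for ANXA1 LGALS1 at 0.0928 log2 units. S100A11 and S100A13 were the members most like each other, at 0.0478 log2 units. Distances of this kind describe 6 libraries of 2 genotypes, and S100A16 was not ranked because its mean was under 1 FPKM.

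The rest of the S100 family was asked about next. Of 20 other S100 and S100-fused genes on the list, 10 were in the table and 6 were tested. Of these, limma called 1 lower and none higher, beside 1.99% and 0.732% of all genes, and the median log2 fold change was -0.28. At an unadjusted p under 0.05 by limma, 2 were lower and 0 higher, for which no share over all genes was computed. With limma voom 0 were called in either direction. The gene called lower was S100A3, which is best known from the hair cuticle, at 0.158, 0.0404 and 0.0415 FPKM in the knockout and 0.663, 0.176 and 0.392 FPKM in WT. Its log2 fold change was -1.45 (standard error 0.38, adjusted p = 0.0142 by limma). It rests on 6 fragments in the knockout and 27 in WT, and without knockout replicate 3 the call was lost, at -1.3 with a limma adjusted p of 0.0537. With limma voom on the recovered fragments it was also lost, at -2.12 with an adjusted p of 0.061. By adjusted p alone, S100A14 was lower too, at -0.75 (adjusted p = 0.0339 by limma), from 1 fragment in the knockout and 9 in WT. That rule held for 26.2% of all genes in the lower direction. S100A1 is a regulator of calcium handling in muscle, and its exons overlap those of S100A13. It had a log2 fold change of 0.4 (adjusted p = 0.29 by limma) and overlapping values. Single libraries decided that value, which was 0.18 without knockout replicate 2 (adjusted p = 0.664 by limma), 0.2 without WT replicate 2 (0.639) and 0.74 without knockout replicate 3 (0.0253).

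**Figure D3:**
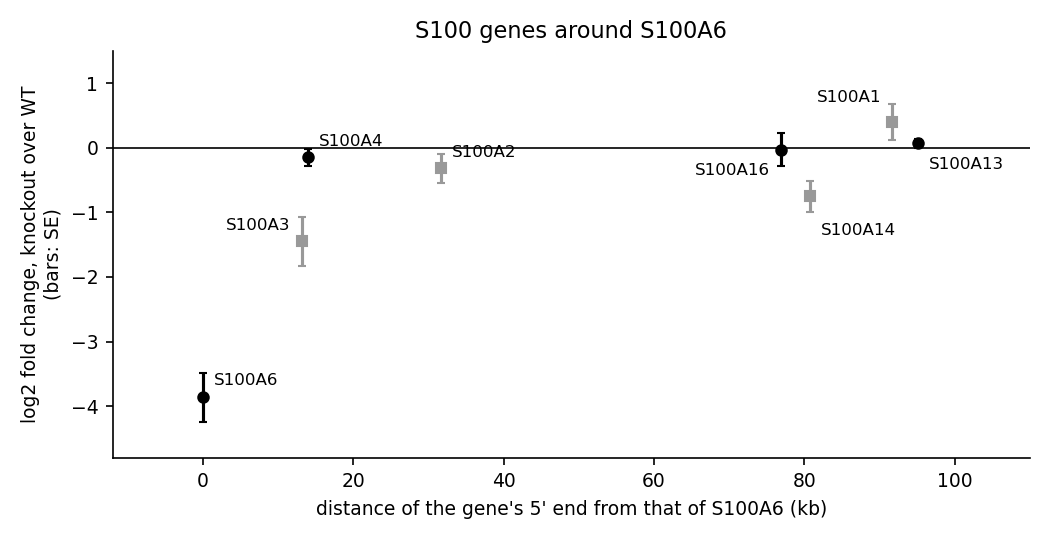
Log2 fold change of knockout over WT, with its standard error as bars, for S100 genes around S100A6 against the distance of each gene's outermost GENCODE 5′ end from that of S100A6 in kb (black circles, genes described here; grey squares, other S100 genes). S100A6 was at -3.86 and S100A3, 13.1 kb away, at -1.45, while S100A4, 13.9 kb away, was at -0.15 and S100A13, 95.1 kb away, at 0.07.

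By position, S100A6 and S100A3, the S100 genes past both thresholds, were consecutive by outermost GENCODE 5′ end among the tested S100 genes. S100A4 came next, at 13.9 kb from S100A6, with -0.15. S100A14, lower by adjusted p alone, is at 80.7 kb and rests on 1 fragment in the knockout and 9 in WT. S100A3 rests on 6 and 27 fragments, respectively. Distances are between the outermost GENCODE 5′ ends, which for S100A4 lies upstream of the RefSeq start of the window printed above. That RefSeq start falls between the S100A6 and S100A3 genes. By it S100A4 comes before S100A3, so S100A6 and S100A3 are then not consecutive. S100A3 is at 13.1 kb from S100A6, and its gene overlaps that of S100A4. S100A2 at 31.6 kb had a log2 fold change of -0.32 (adjusted p = 0.276 by limma). S100A10 and S100A11 lie apart from this group, 1541.9 and 1488.3 kb from S100A6 on the other side, and their own 5′ ends are 53.5 kb from each other. Of 15 tested genes other than the members with a start within 200 kb of one, 1 (S100A3) was called lower and none higher by limma. Over all genes 1.99% were called lower and 0.732% higher. Among the 15 genes limma voom called 0. By adjusted p alone 5 were lower and 1 was higher, the same counts as at an unadjusted p under 0.05, where 26.2% of all genes were lower and 16.6% higher by adjusted p alone. The lower genes included INTS3, a subunit of the Integrator complex, at -0.41 (adjusted p = 0.000492 by limma), ICE2 near ANXA2 at -0.44 (adjusted p = 0.00843 by limma) and ALDH1A1, a retinaldehyde dehydrogenase near ANXA1, at -0.86 (adjusted p = 0.00075 by limma). The higher gene was SLC27A3, a fatty acid transport protein, at 0.47 (adjusted p = 0.0281 by limma). ILF2, CHTOP and SNAPIN, which are highly expressed next to S100A13, had log2 fold changes of 0.03, -0.04 and 0.00.

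Of 11 other annexins on the list, 9 were in the table and 8 were tested, and none was past both thresholds by limma or by limma voom. By adjusted p alone 3 were higher and 1 was lower, as at an unadjusted p under 0.05, beside 16.6% of all genes higher and 26.2% lower by that rule. ANXA6, which binds membranes in endocytosis, was at 101 ± 1.84 FPKM in the knockout and 73.2 ± 3.81 FPKM in WT (SD, n = 3 each), with a log2 fold change of 0.47 (adjusted p = 0.000177 by limma). ANXA5, a binder of exposed phosphatidylserine, was at 83.4 ± 2.52 and 63.6 ± 3.29 FPKM (SD, n = 3 each), a log2 fold change of 0.39 (adjusted p = 0.000512 by limma). ANXA11, which tethers RNA granules to lysosomes, was at 18.8 ± 0.541 and 14.8 ± 0.994 FPKM (SD, n = 3 each), with 0.35 (adjusted p = 0.00292 by limma). These 3 annexins were higher in each knockout library than in any WT library. ANXA4 went the other way, at 2.53 ± 0.303 and 3.4 ± 0.317 FPKM (SD, n = 3 each) and a log2 fold change of -0.41 (adjusted p = 0.0208 by limma). That p was above 0.05 with GC correction, at -0.19 (0.186), with median scaling (0.0611), and without WT replicate 3 (0.0712), knockout replicate 1 (0.0829) or knockout replicate 3 (0.0596). GC correction moved ANXA5 to 0.61. ANXA7 and ANXA3 had log2 fold changes of -0.02 (adjusted p = 0.81 by limma) and 0.14 (adjusted p = 0.591 by limma), and the sign of ANXA7 changed with the scaling.

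**Figure D4:**
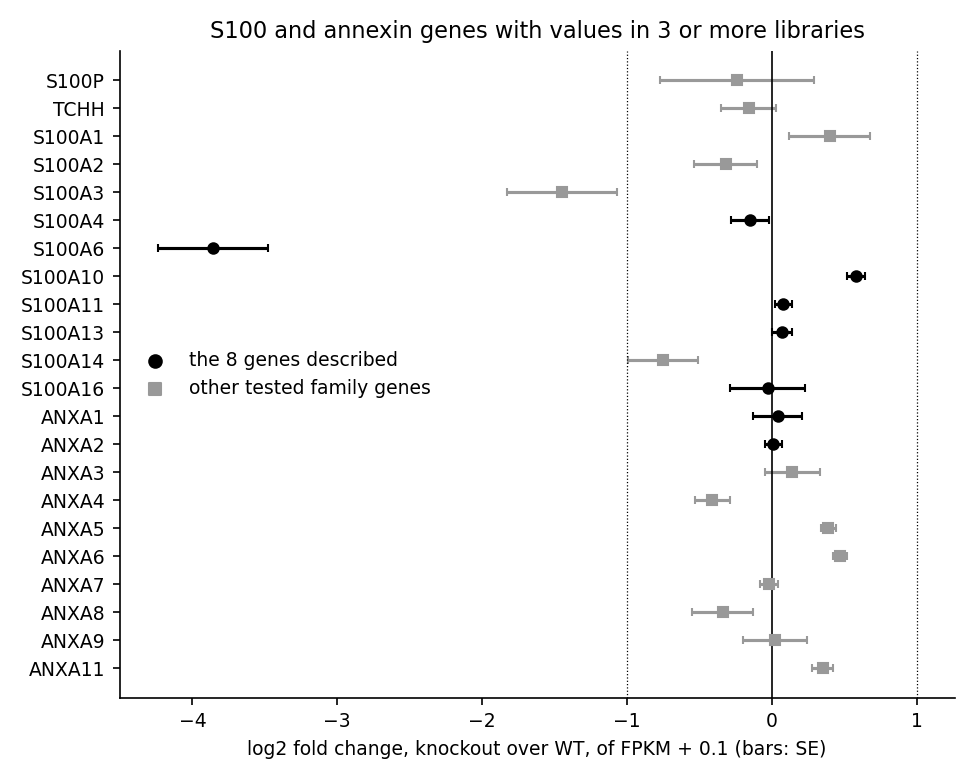
Log2 fold change of knockout over WT on the scale of log2(FPKM + 0.1), with its standard error as bars, for the 8 genes described (black circles) and the other tested S100, S100-fused and annexin genes (grey squares). Values of -1 and 1 are dotted, and S100A6 at -3.86 and S100A3 at -1.45 lie below the first.

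The proteins that work with these genes were counted from 4 lists. Of 15 genes for partners of the annexin A2-S100A10 complex and the plasmin system, 11 were tested, with a median log2 fold change of 0.18. There limma called 1 lower and none higher, beside 1.99% and 0.732% of all genes, and limma voom also called 1 lower and none higher. At an unadjusted p under 0.05 by limma, 1 was lower and 4 were higher, for which no share over all genes was computed.

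By adjusted p alone 4 of the 11 tested genes of that list were higher (named after their values were seen) and 1 was lower. Over all genes 16.6% were higher and 26.2% lower by that rule. PLAT, the tissue plasminogen activator, was at 49.1, 47.8 and 46.6 FPKM in the knockout and 32.2, 31.2 and 34.1 FPKM in WT, a log2 fold change of 0.56 (adjusted p = 0.000106 by limma). This is close in size to the log2 fold change of S100A10, 0.58, although no test compared the genes. SRC, the kinase that phosphorylates annexin A2, was higher by 0.32 (adjusted p = 0.00213 by limma). AHNAK, a giant protein held at the membrane by the complex, was higher by 0.28 (adjusted p = 0.0246 by limma), and SERPINE2, a protease inhibitor, by 0.3 (adjusted p = 0.0442 by limma). Neither passed with FPKM rescaled to a common total (adjusted p of 0.093 and 0.106 by limma). AHNAK was also lost without WT replicate 2 (0.0776) and without any 1 of knockout replicates 1 to 3 (0.0728, 0.073 and 0.0576). SERPINE2 was lost without WT replicate 1 (0.0552), WT replicate 3 (0.134), knockout replicate 1 (0.127) or knockout replicate 2 (0.134). It was also lost with no filter (0.0593) and without trend and robust moderation (0.0848), and was at 0.51 with GC correction. Its values overlapped between genotypes. The urokinase gene PLAU and its receptor PLAUR had adjusted p of 0.332 and 0.628 by limma, with overlapping values.

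Of 7 genes for cell-surface receptors of S100 proteins and annexins, 3 were tested and none was past both thresholds by limma or limma voom, while all 3 were higher at an unadjusted p under 0.05. No share over all genes was computed for an unadjusted p. By adjusted p alone 1 was higher, beside 16.6% of all genes. BSG, a receptor for some secreted S100 proteins, was at 400 ± 16.8 FPKM in the knockout and 356 ± 30.1 FPKM in WT (SD, n = 3 each), with a limma adjusted p of 0.0521. Its log2 fold change of 0.17 was 0.04 with GC correction and 0.3 with median scaling. ALCAM, an adhesion molecule, was higher by adjusted p alone, with a log2 fold change of 0.54 (adjusted p = 0.00195 by limma) that was 0.91 with GC correction. AGER, the receptor RAGE, was at 1.38 ± 0.0721 and 1.11 ± 0.0751 FPKM (SD, n = 3 each), with a limma adjusted p of 0.0871.

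Of 12 intracellular partners of S100A4, S100A6 and S100A13, 11 were tested and none was past both thresholds by limma or limma voom, with a median log2 fold change of -0.11. By adjusted p alone 4 were lower and 4 higher, as at an unadjusted p under 0.05, beside 26.2% and 16.6% of all genes. CACYBP, which is named for its binding of calcyclin, the S100A6 protein, was at 92.6 ± 2.48 FPKM in the knockout and 116 ± 2.04 FPKM in WT (SD, n = 3 each), a log2 fold change of -0.33 (adjusted p = 0.000468 by limma) that was 0.01 after a correction for GC content and -0.2 with median scaling. STUB1, a ubiquitin ligase that S100 proteins bind, was at 187 ± 4.64 and 132 ± 8.02 FPKM (SD, n = 3 each), with 0.51 (adjusted p = 0.000147 by limma), or 0.28 with GC correction. MYH9, the myosin heavy chain that S100A4 binds, was at 92.0 ± 2.14 and 80.7 ± 2.09 FPKM (SD, n = 3 each), with a limma adjusted p of 0.00748. SPHK1, a sphingosine kinase of the release complex that S100A13 joins, was higher by 0.64 (adjusted p = 0.000293 by limma), or 0.41 with GC correction. The other 3 lower genes were SUGT1, a chaperone partner that S100A6 binds, at -0.46 (adjusted p = 0.0114 by limma), SYT1, a synaptotagmin of the S100A13 release complex, at -0.34 (0.0334), and FKBP5, an immunophilin, at -0.25 (0.0282). The groups of genes by GC content that hold SUGT1, SYT1 and FKBP5 had median log2 fold changes of -0.36, -0.31 and -0.24, respectively. The part of GC content was not tested, and no GC-corrected value is given for these genes. Genes of this list other than CACYBP and STUB1 were named after their values were seen.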

How the data were processed

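Total RNA isolated with TRIzol was made into libraries with the VAHTS Universal V6 kit. The authors deposited 1 table of FPKM values for 16760 genes in 6 libraries, and the submitters' processing notes name GRCh38.p13. The aligner, counting program, strand setting and filters were not given in the sources used here. Libraries were grouped by the genotype in their labels.

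Whole fragments, gene lengths and depth were solved from the steps in the FPKM values and were whole, within 0.02, for all 16760 genes (on simulated data the step returned the exact fragments for 99.0% of 5876 genes). limma 3.58.1 under R 4.3.3, moderated with trend and robust options, was run on log2(FPKM + 0.1) for 15441 genes, those with a value above 0 in 3 or more of the 6 libraries, with no replicate block. Fold changes on that scale understate those of genes near 0.1 FPKM. Calls needed a p below 0.05 after Benjamini-Hochberg adjustment over all tested genes together with more than 1 unit of log2 change in either direction, as in the paper, which names no program for this comparison. The fit was tested on simulated data. Positions, GC content and pseudogenes came from GENCODE release 29, in which 99.1% of genes were matched. Clopper-Pearson intervals were computed with scipy 1.17.1.

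The members and gene lists were chosen with earlier results of these data known. Named genes are the members, family genes averaging 1 FPKM or more, called genes of each partner list or, with none called, its 2 most abundant genes, the 3 genes most like each member, and genes within 200 kb of a member. Genes outside this rule were chosen after their values were seen. Alternatives were other pseudocounts, filters and scalings, limma without trend and robust moderation, limma voom on the fragments, a GC correction (lowess), a replicate block and leaving out each library. An adjusted p alone was added after seeing the data. The values of 2 genes of the partner lists are not reported here, though they are counted.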

Additional observations from a re-analysis of the deposited data

How the results depend on the processing

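The count of members past both thresholds was 1 (S100A6) in each of 17 alternatives, a description of values that chose it. Its log2 fold change ran from -4.45 (pseudocount 0.01) to -2.11 (pseudocount 1), and that of S100A10 from 0.5 (quantile normalization) to 0.71 (median scaling, and GC correction). Of the other S100 family and annexin genes, 1 was called lower, which became 0 with limma voom, with the filter at a mean of 1 FPKM and with a pseudocount of 1, 2 with a pseudocount of 0.01, and 3 by adjusted p alone. Over leaving out 1 library at a time it was 0 (without knockout replicate 3) to 1. The number called higher was 0, and 3 by adjusted p alone. Of the partner and receptor genes 1 was called, which became 0 with the filter at a mean of 1 FPKM and with a pseudocount of 1, and 22 by adjusted p alone. By adjusted p alone 26.2% of all genes were lower and 16.6% higher. ANXA7 changed sign, to 0.28 with GC correction, 0.11 with median scaling and 0.01 with quantile normalization, and ran from -0.05 to 0.02 over leaving out 1 library. GC correction also turned CACYBP to 0.01 and CALM2 to 0.25, and ANXA1 turned to -0.17 without WT replicate 3 and -0.02 without knockout replicate 2 (the cause was not tested). Over all genes, the filter at a mean of 1 FPKM gave 126 lower and 80 higher (61.2% lower), limma voom 499 and 169, a pseudocount of 0.01 505 and 184, and a pseudocount of 1 69 and 29. FPKM rescaled to a common total gave 360 and 82 (81.4%).

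Same-numbered libraries deviated together with correlations of 0.21, 0.13 and -0.06. These values show no clear pairing by number, and 3 libraries per genotype are too few to exclude one. With the replicate number as a block, 1 family gene was called lower and 0 higher, 1 partner gene and 1 member were called, and 309 genes were lower and 112 higher over all genes. Not every library correlated best with its own number. Depth limits genes with few fragments, such as S100A6, S100A3 and S100A14 with 10, 6 and 1 in the knockout.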

Other observations

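Other calcium sensors of the EF-hand type were looked at beside the S100 genes. Of 14 on the list 13 were tested, and none was past both thresholds by limma or limma voom. By adjusted p alone 5 were higher and 3 lower, beside 16.6% of all genes higher and 26.2% lower. At an unadjusted p under 0.05 the counts were 5 and 5, for which no share over all genes was computed. The median log2 fold change was -0.04. CALM3 had the highest mean of the calmodulin genes over the 6 libraries, though CALM2 was above it in WT replicates 2 and 3. CALM3 was at 270 ± 4.95 FPKM in the knockout and 233 ± 11.9 FPKM in WT (SD, n = 3 each), a log2 fold change of 0.21 (adjusted p = 0.00597 by limma). CALM2, which encodes the same protein, was at 210 ± 4.71 and 230 ± 5.23 FPKM (SD, n = 3 each), a log2 fold change of -0.13 (adjusted p = 0.0255 by limma), which was 0.25 after a correction for GC content. Its adjusted p was above 0.05 with median scaling (0.98) and without WT replicate 2 (0.0895), knockout replicate 1 (0.0637), knockout replicate 2 (0.104) or knockout replicate 3 (0.0736), by limma, and CALM3 was at 0.34 with median scaling and 0.12 with quantile normalization. The calpain genes also differed among themselves (chosen after their values were seen). CAPN1 and CAPNS1 fall in the 9th GC group, with a median log2 fold change of 0.14, and CAPN2 in the 5th, with -0.11. The part of GC content in their values was not tested. The small subunit CAPNS1 was at 104 ± 2.86 and 80.2 ± 4.46 FPKM, and the catalytic subunits CAPN1 and CAPN2 were at 51.3 ± 3.53 and 39.8 ± 4.39 FPKM and at 55.0 ± 0.915 and 63.6 ± 0.705 FPKM (SD, n = 3 each), with limma adjusted p of 0.000619, 0.00657 and 0.00407.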
